A study of Mus musculus with 12 samples.

Results

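The floor plate is the strip of glia-like cells along the ventral midline of the developing neural tube, and its genes were followed here through 12 mouse teratomas. The group comprised 9 genes of 38986 listed in each library: Shh, Foxa1, Foxa2, Ntn1, Slit2, Corin, Spon1, Vtn and Lmx1a, taken by symbol. All 9 were present in the files and all 9 were among the 18405 genes that passed a filter on low counts. The group was proposed with the levels of these genes in these libraries already known, so their levels, differences and correlations are a description without a test. The genes had been selected on their level in each group of teratomas and on the way the genes varied together over the libraries.

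Floor plate cells secrete Sonic hedgehog (Shh), which spreads dorsally and sets the identity of ventral progenitors by its concentration. The cells themselves are induced by Shh from the underlying notochord, after which the transcription factor Foxa2 maintains their own Shh. They also release netrin, Slit proteins and F-spondin, which steer commissural axons towards and across the midline. In the midbrain, floor plate cells that also express Lmx1a are the source of dopaminergic neurons.

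The teratomas, tumours in which ES cells differentiate into mixed tissues, came from R1 mouse ES cells grown in serum with LIF. The cells had been transduced with the pEZ-LV235 lentiviral vector, in which the ubiquitously active CAG promoter drives the insert, and selected with puromycin. The vector was empty (ET, the control) or carried wild-type Dnmt3L (WT), Dnmt3L with a lysine changed to arginine at the position that the names K238R and K412R give, with 3 teratoma libraries for each of the 4 groups. Dnmt3L is a catalytically inactive partner that stimulates the enzymes of de novo DNA methylation. For every group, 5000000 cells were placed under the skin of 8-week-old male NOD-PrkdcEM1 mice, which lack T and B lymphocytes, and tumours were collected on day 21. The sources describe neither a cloning step nor separate transductions within a group, so its 3 libraries may be repeat tumours of 1 transduced population, and p-values then measure the spread between tumours only. A teratoma also holds host cells such as vessels and stroma. All 4 groups carry the vector, and no deletion of the endogenous Dnmt3l gene is described.

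Total counts lay between 16957677 and 18546100 per library, and replicates of a group differed by 11.3 to 57.5 in chi-square per degree of freedom, far above counting noise. The RNA Gm26917 took 7.47% to 13.9% of a library. Transcripts of Dnmt3l, which check the labels, were counted 39, 11 and 137 times in ET, 2941, 3643 and 3581 times in WT and 699, 677 and 463 times in K412R. In the libraries labelled K238R the counts were 35, 20 and 10, no higher than with the empty vector. The label K238R is thus not borne out by the transcript, and the 3 libraries are called by their label only. Levels are given below as CPM, counts divided by the library size after TMM scaling, in the order of replicates 1, 2 and 3. The scale is not corrected for gene length, so levels are compared between libraries and not between genes. In bulk RNA, fewer floor plate cells and less RNA per cell cannot be told apart.

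Because Dnmt3L acts on methylation of CpG sites, the promoters of 3 members are printed to show how far they differ in CpG content. Methylation was not measured in these libraries. The windows run from 250 bases before to 50 bases after the transcription start and come from RefSeq on GRCm38.p6, while the counts were made on GRCm39. They are chr12:57546062-57546361 (minus strand) for Foxa1, chr5:47982905-47983204 (plus strand) for Slit2 and chr5:72504491-72504790 (minus strand) for Corin, each read 5′ to 3′ on the strand of the gene with its CpG sites in capitals.
Foxa1: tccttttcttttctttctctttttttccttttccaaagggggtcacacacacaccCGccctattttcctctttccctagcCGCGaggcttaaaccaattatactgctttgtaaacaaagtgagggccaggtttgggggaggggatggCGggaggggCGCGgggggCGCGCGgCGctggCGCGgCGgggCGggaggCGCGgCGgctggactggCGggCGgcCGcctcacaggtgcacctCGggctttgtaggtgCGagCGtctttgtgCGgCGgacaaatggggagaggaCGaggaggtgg
Slit2: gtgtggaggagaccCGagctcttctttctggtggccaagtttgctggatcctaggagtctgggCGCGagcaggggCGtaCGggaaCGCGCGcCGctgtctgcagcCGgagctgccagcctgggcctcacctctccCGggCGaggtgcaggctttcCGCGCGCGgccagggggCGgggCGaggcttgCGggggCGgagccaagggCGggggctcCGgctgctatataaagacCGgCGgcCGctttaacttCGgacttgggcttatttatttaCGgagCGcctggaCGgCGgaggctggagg
Corin: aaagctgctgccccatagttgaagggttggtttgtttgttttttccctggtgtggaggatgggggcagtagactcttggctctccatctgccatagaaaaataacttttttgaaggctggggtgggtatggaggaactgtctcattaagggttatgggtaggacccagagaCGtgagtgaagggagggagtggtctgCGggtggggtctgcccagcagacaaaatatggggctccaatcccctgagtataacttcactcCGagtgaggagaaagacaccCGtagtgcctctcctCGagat
Foxa1 held 26 CpG sites, Slit2 held 30 and Corin held 5, against a median of 7 over the 32851 windows of the table. As many CpG sites or more were found in 16.9% of all windows for Foxa1, in 11.7% for Slit2 and in 62.0% for Corin. Windows were given for 6 of the 9 members, and the others with one were Vtn with 9 sites, Lmx1a with 12, and Foxa2 with 12, 23 and 13 at its 3 starts. Both strands of these 8 windows were searched for GACCACCCA, the preferred site of the Gli factors that act downstream of Shh, and it occurred in none of them and in 0.253% of all windows. The letters TGTTTAC or TGTTTGC, the forkhead core bound by Foxa proteins, occurred in 8.48% of all windows and in 1 of the 8, that of Foxa1, where TGTTTAC lies on the opposite strand from position 110 of the window. Slit2 and Corin, with the most and the fewest CpG sites of these windows, were both lower in WT than in ET. Since 8 of the 9 members were lower in WT and all were selected on their levels, nothing is read from this. A link between CpG content and level was not tested.

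**Figure D1:**
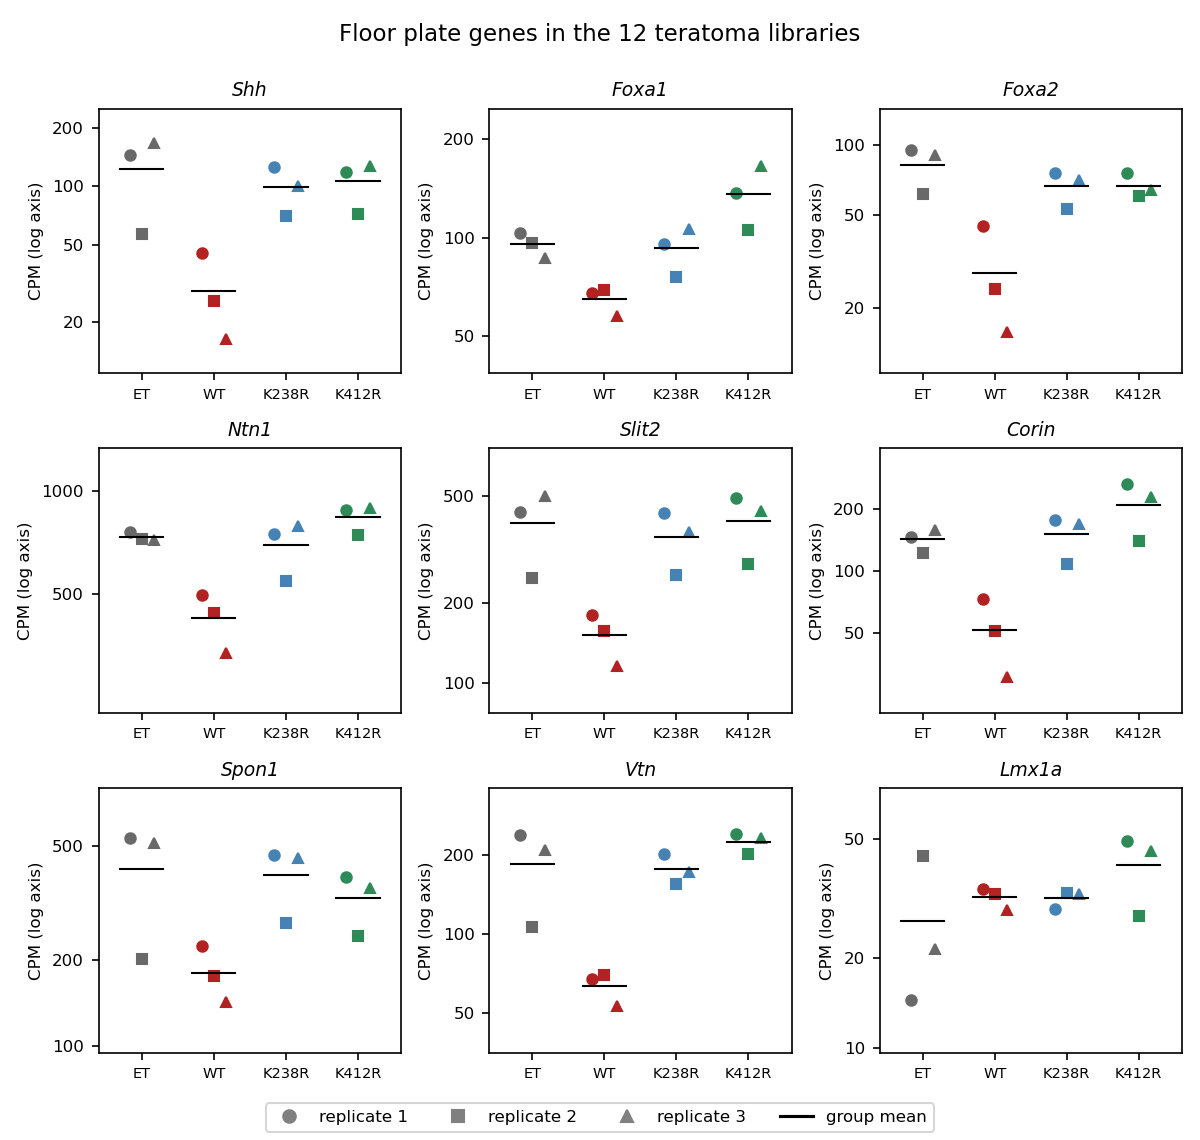
CPM of the 9 floor plate genes in each library (points, log axis; symbols mark the replicate number), by group along the horizontal axis, with the group mean as a line (n = 3 libraries per group). For every gene except Spon1 and Lmx1a, the 3 WT libraries lie below all 9 others, and Lmx1a shows no such step.

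Of the transcription factors, Foxa2, a forkhead pioneer factor that specifies the floor plate, stood at 95.4, 61.4 and 90.2 CPM in ET and at 44.9, 24.0 and 15.7 CPM in WT. It stood at 75.7, 53.3 and 70.4 CPM in the libraries labelled K238R and at 75.8, 60.6 and 63.9 CPM in K412R. The WT libraries were the 3 lowest of the 12, and the other groups overlapped each other. On the log2 scale, the mean of WT lay below that of ET by a difference of -1.65 (standard error 0.48), and that of K412R lay above WT by 1.37 (standard error 0.45).

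Foxa1, the related forkhead factor that overlaps with Foxa2 in the ventral midline, was at 103, 96.3 and 86.6 CPM in ET and at 67.9, 69.1 and 57.8 CPM in WT. Its levels were 95.6, 76.0 and 107 CPM in the libraries labelled K238R and 137, 105 and 165 CPM in K412R. WT was again below all others. The K412R libraries of Foxa1 lay above its ET libraries, with a log2 difference of 0.49 (standard error 0.20) that did not pass with edgeR. Its difference of WT from ET, -0.55 (standard error 0.11), was the smallest among the 8 members that were lower in WT.

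Lmx1a, a LIM homeodomain factor of the midbrain floor plate and of the roof plate, went its own way. It was at 14.5, 44.0 and 21.4 CPM in ET, at 33.9, 32.8 and 29.0 CPM in WT, at 29.2, 33.1 and 32.6 CPM in the libraries labelled K238R and at 49.3, 27.5 and 45.6 CPM in K412R. All groups overlapped, ET held both the lowest library and one of the 3 highest, and the log2 difference of WT from ET was 0.41 with a standard error of 0.47. Lmx1a is set apart from the 8 other members below.

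Shh itself, the secreted ligand, had the widest range of the group. It stood at 144, 56.8 and 167 CPM in ET and at 45.1, 25.7 and 16.4 CPM in WT. In the libraries labelled K238R it stood at 126, 69.9 and 99.8 CPM, and in K412R at 119, 71.5 and 127 CPM. The highest library, ET replicate 3, held 10.2 times the level of the lowest, WT replicate 3. The log2 difference of WT from ET was -2.05 (standard error 0.64), equal to a level 4.14 times lower, and K412R lay 1.94 (standard error 0.50) above WT. ET replicate 2 was the ET library nearest to WT, and without it the difference of WT from ET was -2.53.

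Netrin 1 (Ntn1), the diffusible cue that attracts commissural axons, was at 761, 725 and 721 CPM in ET and at 498, 439 and 336 CPM in WT. It was at 749.6, 544 and 790.3 CPM in the libraries labelled K238R and at 883, 748 and 892 CPM in K412R. The 3 ET libraries were close to each other, WT lay below all other libraries, and the log2 difference of WT from ET was -0.81 (standard error 0.17).

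Slit2, the repellent that expels axons once they have crossed, was at 436, 248 and 502 CPM in ET and at 179, 157 and 116 CPM in WT. Its levels were 433, 253 and 367 CPM in the libraries labelled K238R and 492, 279.7 and 439.8 CPM in K412R. Replicate 2 was the lowest library of ET, of K412R and of the libraries labelled K238R, and each of those 3 still lay above the highest WT library. The log2 difference of WT from ET was -1.35 (standard error 0.36), against 1.40 (standard error 0.31) for K412R over WT.

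Corin, a transmembrane serine protease used to isolate midbrain floor plate cells, was at 146, 123 and 159 CPM in ET and at 73.0, 51.0 and 30.4 CPM in WT. It reached 176, 109 and 169.9 CPM in the libraries labelled K238R and 265, 139.6 and 229 CPM in K412R. K412R had the highest mean, 211 ± 64.3 CPM (SD, n = 3), against 142 ± 18.5 CPM in ET, and these groups overlapped. WT lay below ET by a log2 difference of -1.55 (standard error 0.38), and K412R lay above WT by 2.07 (standard error 0.46), the largest difference between K412R and WT among the members.

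Vitronectin (Vtn), an adhesive glycoprotein of serum and matrix that is also made at the ventral midline, was at 240.0, 106 and 209 CPM in ET and at 67.4, 70.0 and 52.9 CPM in WT. It was at 202, 155 and 173 CPM in the libraries labelled K238R and at 241, 202 and 232 CPM in K412R. The groups other than ET were tight, with 63.4 ± 9.22 CPM in WT and 225 ± 20.7 CPM in K412R (SD, n = 3), and the log2 difference between these was 1.83 (standard error 0.15).

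F-spondin (Spon1), a matrix protein that promotes commissural axon growth, was at 534, 202 and 513 CPM in ET and at 225, 175 and 142 CPM in WT. It was at 466, 269 and 456 CPM in the libraries labelled K238R and at 392, 243 and 357 CPM in K412R. Spon1 was the member among the 8 whose ET and WT libraries overlapped, since ET replicate 2 lay below WT replicate 1. The log2 difference of WT from ET was -1.10 (standard error 0.50) with all libraries and -1.56 without ET replicate 2.

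**Figure D2:**
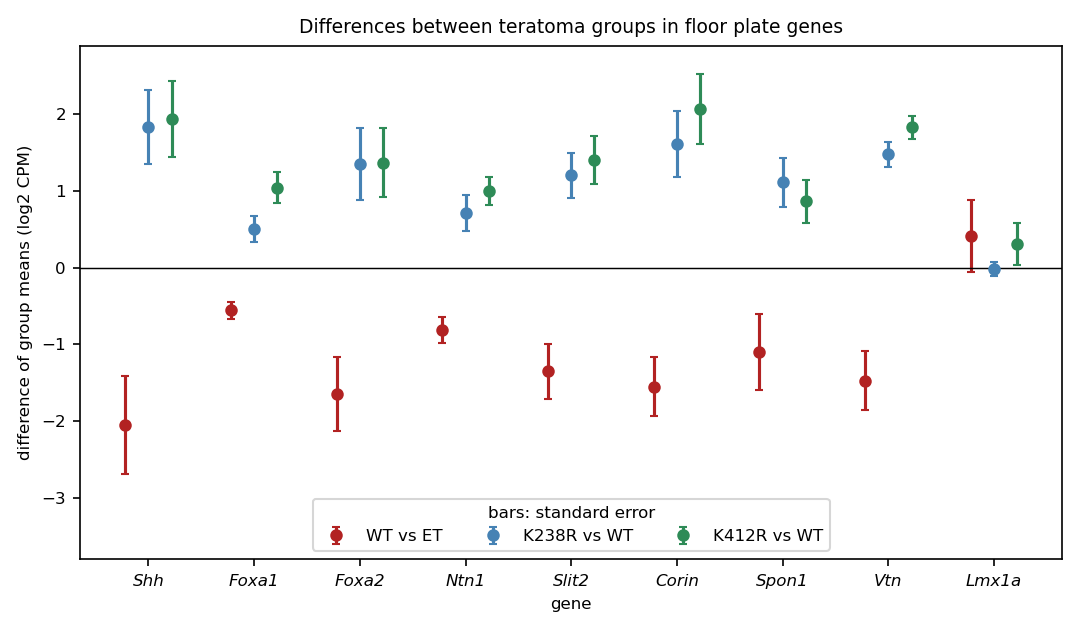
Difference between group means of log2 CPM for each floor plate gene (points) with its standard error (bars), for WT against ET, the libraries labelled K238R against WT, and K412R against WT (n = 3 libraries per group). The WT libraries enter all 3 comparisons. The differences from ET are negative and those from WT positive for 8 genes, and Lmx1a lies at 0.41, -0.01 and 0.31.

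Side by side, 8 of the 9 members were lower in WT than in ET, with a median log2 difference of -1.35 over the 9, where the median over all genes tested was -0.00447. The libraries did not overlap for 7 of the 9, and 10.5% of all genes tested had all 3 WT libraries below all 3 ET libraries. Against WT, 8 of the 9 were higher in the libraries labelled K238R (median 1.21), with no overlap for 8, where 11.4% of all genes had all 3 libraries higher. In K412R, 9 of 9 had a higher mean than in WT (median 1.37), with no overlap for 8, where the share of all genes was 15.4%. These comparisons share the WT libraries, so a low value in WT enters each of them, and the choice of the members fixes much of their direction. Against ET, the median difference was 0.19 for K412R and -0.05 for the libraries labelled K238R.

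At an adjusted p under 0.05 from edgeR's quasi-likelihood test over all genes, 0 of the 9 members passed for WT against ET, where 0.0489% of all genes did. In the same comparison 8 members had an unadjusted p under 0.05 (29.1% of all genes) and 8 passed with DESeq2 (10.4% of all genes). Vtn alone, 1 of the 9, passed for the libraries labelled K238R against WT, where 0.223% of all genes did, while 8 had an unadjusted p under 0.05 (17.5% of all genes) and 7 passed with DESeq2 (4.27%). Foxa1, Ntn1, Slit2, Corin and Vtn, 5 of the 9, passed for K412R against WT, where 2.04% of all genes did, while 8 had an unadjusted p under 0.05 (22.8% of all genes) and 7 passed with DESeq2 (9.1%). Against ET, no member passed in either mutant group with edgeR or with DESeq2. The share of all genes that passed was 0% in both, while an unadjusted p under 0.05 was found for 1 member in K412R (7.91% of all genes) and for 0 members in the libraries labelled K238R (5.61%), and DESeq2 called 0.484% and 0.0761% of all genes. Since the members were chosen with these values known, nothing is read from their counts.

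Averaged over the 9 members, log2 CPM relative to the mean of ET was -1.13 ± 0.38 in WT, 0.19 ± 0.32 in K412R and -0.04 ± 0.28 in the libraries labelled K238R (SD, n = 3 each), where ET itself varied by 0.28. The 3 WT libraries were the 3 lowest, at -0.76, -1.09 and -1.53. Replicate 2 was the lowest library of each other group, at -0.33 in ET, -0.36 among the libraries labelled K238R and -0.17 in K412R. Leaving out 1 library at a time kept the difference of WT from ET between -1.31 and -0.92.

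The members did not vary to the same extent. The highest library held 10.2 times the lowest for Shh, 8.71 times for Corin, 6.09 times for Foxa2, 4.56 times for Vtn, 4.32 times for Slit2 and 3.75 times for Spon1. The ratio was 3.40 for Lmx1a, 2.86 for Foxa1 and 2.66 for Ntn1. WT replicate 3 was the lowest library for 8 of the 9. For each unit of log2 change in Shh, Corin moved by 0.81, Vtn and Foxa2 by 0.72 each, Slit2 by 0.67 and Spon1 by 0.59, against 0.38 for Ntn1 and 0.31 for Foxa1.

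Over the 12 libraries, the 28 pairs among the 8 members other than Lmx1a had Pearson r between 0.60 and 0.98 with a median of 0.91, and Spearman rho between 0.50 and 0.96. Shh and Slit2 were the closest pair (r = 0.98) and Foxa1 and Spon1 the loosest (r = 0.60). Libraries of a group share a cell line, and the step between WT and the rest adds to each r. Taken as deviations from the group means, the same pairs had r between 0.31 and 0.95 with a median of 0.75, so the genes also varied together among the tumours of a group. Within groups, Slit2 and Spon1 (r = 0.95), Shh and Slit2 (0.94) and Shh and Spon1 (0.94) were the tightest, while Foxa1 and Vtn were the loosest (0.31). Lmx1a had r between -0.35 and 0.29 with the other members, and within groups its r with Vtn was -0.65. Without the libraries labelled K238R, the mean r over all 36 pairs was 0.68, against 0.67 with them.

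**Figure D3:**
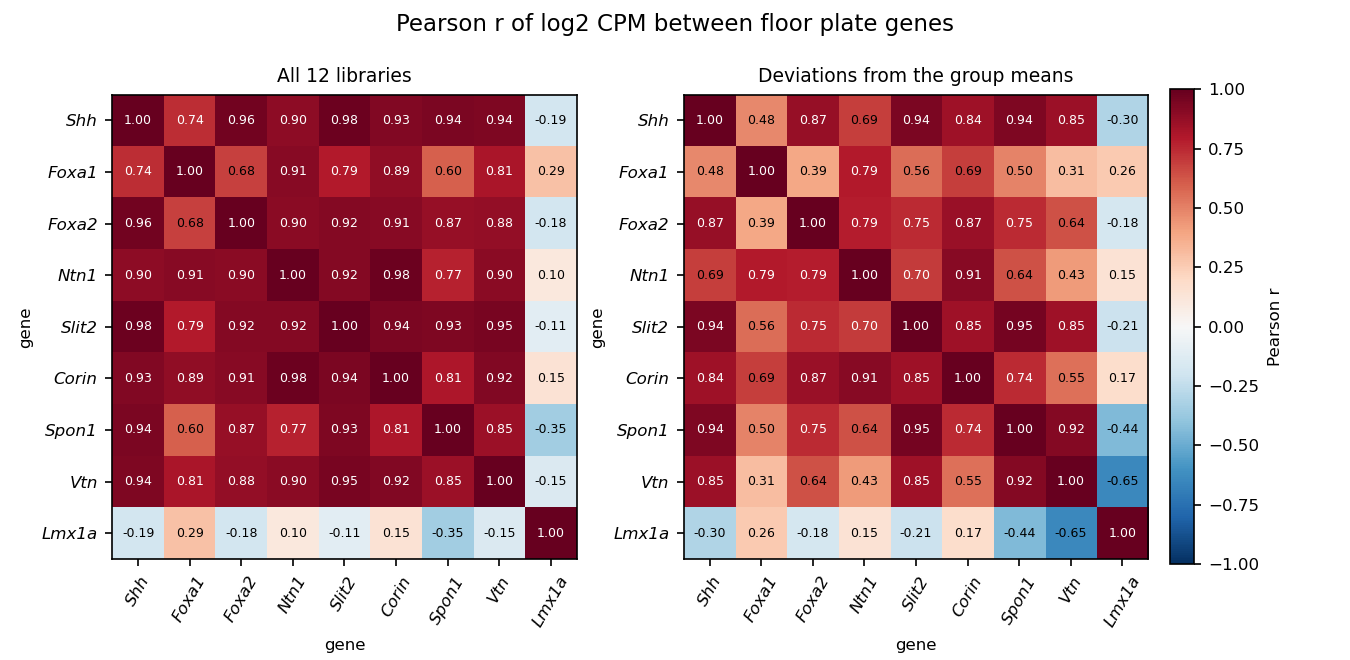
Pearson r of log2 CPM between each pair of floor plate genes over the 12 libraries (left) and after subtracting group means (right), as a colour scale from -1 to 1 with each r printed. Every pair without Lmx1a has r of at least 0.60 on the left and at least 0.31 on the right, while the row of Lmx1a runs from -0.35 to 0.29 and from -0.65 to 0.26.

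Among all genes tested that are not members, those most like the mean of the 9 members over the 12 libraries were Jhy (r = 0.99), Sulf1, H1f0, Cd276, Rfx4, Fam210b, Lipg and Plekha5 (r between 0.97 and 0.98). Sulf1, an extracellular heparan sulfate sulfatase, averaged 712 ± 130.1 CPM in ET and 357 ± 78.3 CPM in WT. Jhy averaged 45.9 ± 10.4 CPM in ET, 16.4 ± 3.87 CPM in WT, 46.3 ± 8.66 CPM in the libraries labelled K238R and 54.3 ± 13.6 CPM in K412R (SD, n = 3). Within groups, r was 0.97 for Sulf1 and 0.95 for Jhy.

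Lmx1a was most like a different set of genes. Its closest were Gucy2c (r = 0.93), Pdzrn4, Dmrta2, Kcng3, Ret, Cck, Nr4a2 and Gm32725 (r between 0.88 and 0.91). Nr4a2 is the nuclear receptor required for midbrain dopaminergic neurons and Ret is the receptor subunit for GDNF family ligands. The summed CPM of 10 midbrain dopamine genes (Th, Nr4a2, Pitx3, En2, Ddc, Slc6a3, Slc18a2, Otx2, Aldh1a1 and Wnt5a) followed Lmx1a with r = 0.84 and rho = 0.83 and followed the mean of the 8 other members with r = -0.24. That sum lay between 242 and 447 CPM in ET, 323 and 399 CPM in WT, 277 and 389.6 CPM in the libraries labelled K238R and 309.9 and 432 CPM in K412R. Its single genes had r with Lmx1a from -0.23 for En2 to 0.90 for Nr4a2. Wnt5a (0.32) and Otx2 (0.44) were loose, and had r = 0.55 and 0.72 with the mean of all 9 members. ET replicate 2 held both the highest sum and, at 44.0 CPM against 14.5 and 21.4 CPM, the highest Lmx1a level of its group.

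**Figure D4:**
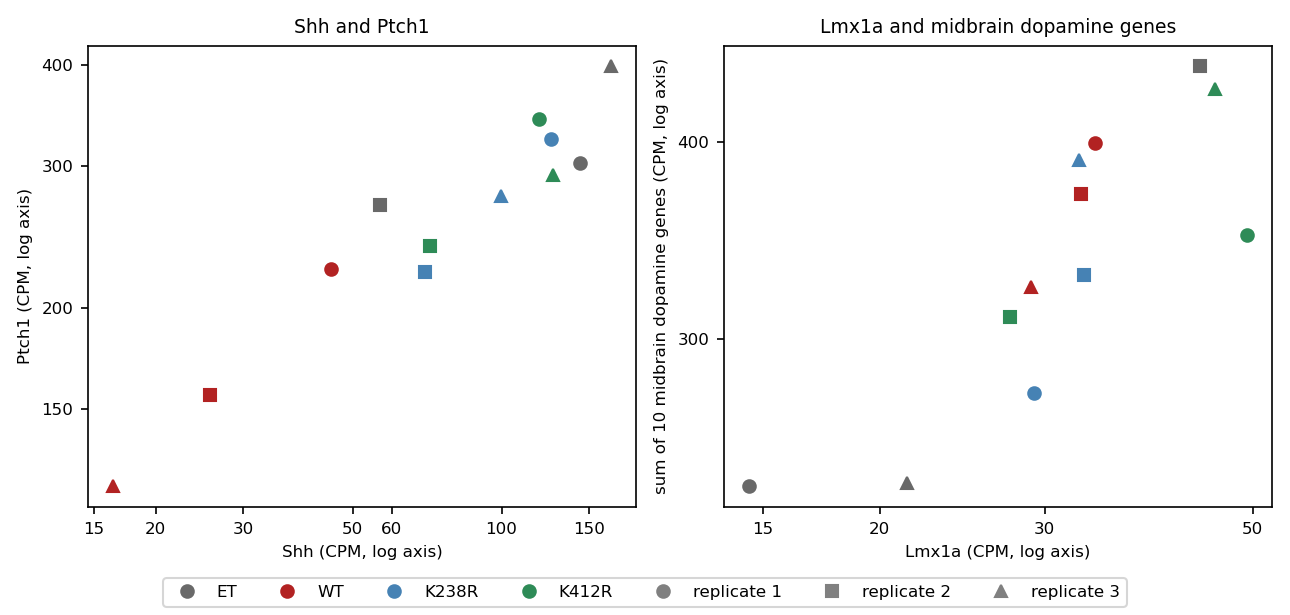
CPM of Shh against Ptch1 (left) and of Lmx1a against the sum of 10 midbrain dopamine genes (right) in the 12 libraries, on log axes; colours mark groups and symbols replicate numbers. Shh and Ptch1 rise together with the 3 WT libraries at the low end for Shh (r = 0.96), while on the right WT lies in the middle of the range and 2 ET libraries lie lowest.

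Further floor plate genes that were not members were read from a list of 10, among them Ferd3l, Nkx2-9, Sulf1, Sulf2, Slit1, Slit3, Lmx1b, Foxj1 and Nkx6-1. In K412R, 4 of the 10 were higher than in WT at the adjusted threshold and none was lower, against 2.04% of all genes in either direction. This list and the lists below were chosen with earlier results of these data known, so nothing is read from their counts. Ferd3l, a basic helix-loop-helix factor of the mesencephalic floor plate, was at 11.2, 5.84 and 8.80 CPM in ET, at 2.84, 3.35 and 1.73 CPM in WT, at 11.4, 7.10 and 9.16 CPM in the libraries labelled K238R and at 11.6, 10.04 and 10.2 CPM in K412R. It rose in K412R over WT by 2.01 on the log2 scale (standard error 0.29, adjusted p = 0.0104, edgeR). It was also the 1 gene of the 10 that passed for the libraries labelled K238R against WT, with a log2 fold change of 1.80 (standard error 0.29, adjusted p = 0.0432, edgeR). The sulfatases Sulf1 and Sulf2, which trim heparan sulfate and so affect Shh spread, rose in K412R over WT by 1.13 (adjusted p = 0.0434) and 0.58 (adjusted p = 0.0219) on the log2 scale by edgeR.

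For WT against ET, 0 of these 10 genes passed with edgeR, while all 10 had a lower mean in WT (50.5% of all genes), 7 had an unadjusted p under 0.05 (29.1%) and 7 passed with DESeq2 (10.4%). The median log2 fold change was -1.12. Ferd3l was at -1.71 (adjusted p = 0.0688) and Nkx6-1 at -1.26 (adjusted p = 0.103) by edgeR. Foxj1, the master factor of motile cilia, was at -0.08. Against ET, 0 of the 10 passed in either mutant group with edgeR or DESeq2. An unadjusted p under 0.05 was found for 2 in K412R (7.91% of all genes) and for 0 in the libraries labelled K238R (5.61%).

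The calls for K412R over WT rested on few libraries. Ferd3l lost its call without WT replicate 3, K412R replicate 1 or K412R replicate 3 (adjusted p from 0.0551 to 0.0581). Sulf2 lost its call without WT replicates 2 or 3 or K412R replicates 1 or 3 (adjusted p from 0.0512 to 0.126). Sulf1 lost its call without ET replicate 1, WT replicates 2 or 3, replicates 1 or 3 of the libraries labelled K238R or K412R replicates 1 or 3 (adjusted p from 0.0601 to 0.202), and without all libraries labelled K238R (adjusted p = 0.0591). With no filter on low counts, Sulf1 did not pass (adjusted p = 0.0746). The call of Ferd3l for the libraries labelled K238R held only without ET replicates 1, 2 or 3, and was lost without any WT, K238R-labelled or K412R library (adjusted p from 0.0575 to 0.201).

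The receiving side of the pathway was read from 21 other Hedgehog genes. For WT against ET, 0 of the 21 passed with edgeR, while 16 had a lower mean in WT (50.5% of all genes), 12 had an unadjusted p under 0.05 (29.1%) and 6 passed with DESeq2 (10.4%). Of these, Ptch1, Hhip and Gli1 are genes that Hedgehog signalling itself switches on. Ptch1, the Shh receptor, was at 302, 268 and 399 CPM in ET, at 224, 156 and 120.2 CPM in WT, at 324, 222 and 276 CPM in the libraries labelled K238R and at 343, 239 and 293 CPM in K412R. The WT libraries did not overlap with ET, and the log2 fold change was -0.95 (standard error 0.23, adjusted p = 0.100, edgeR), which did not pass with edgeR and passed with DESeq2 (adjusted p = 0.00533).

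Hhip, a decoy that binds Hedgehog ligands, stood at 32.5, 11.1 and 32.3 CPM in ET and at 16.5, 10.3 and 15.4 CPM in WT, so ET replicate 2 lay within the WT range (log2 fold change -0.85, adjusted p = 0.158, edgeR). Gli1, the transcriptional activator and usual readout of the pathway, stood at 30.8, 24.4 and 35.6 CPM in ET and at 26.6, 18.7 and 11.8 CPM in WT, and these overlapped (log2 fold change -0.67, adjusted p = 0.139). Over the 12 libraries, r with Shh was 0.96 for Ptch1, 0.74 for Hhip and 0.72 for Gli1, and as deviations from group means 0.89, 0.75 and 0.77. A high r was not particular to these genes, since Sufu (0.95), Scube1 (0.92), Scube3 (0.89) and Smo (0.88) of the list had one too. It was negative for Gas1 (-0.80), Scube2 (-0.65), Boc (-0.58), Gpr161 (-0.42) and Dhh (-0.21). A response to Shh was not tested.

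**Figure D5:**
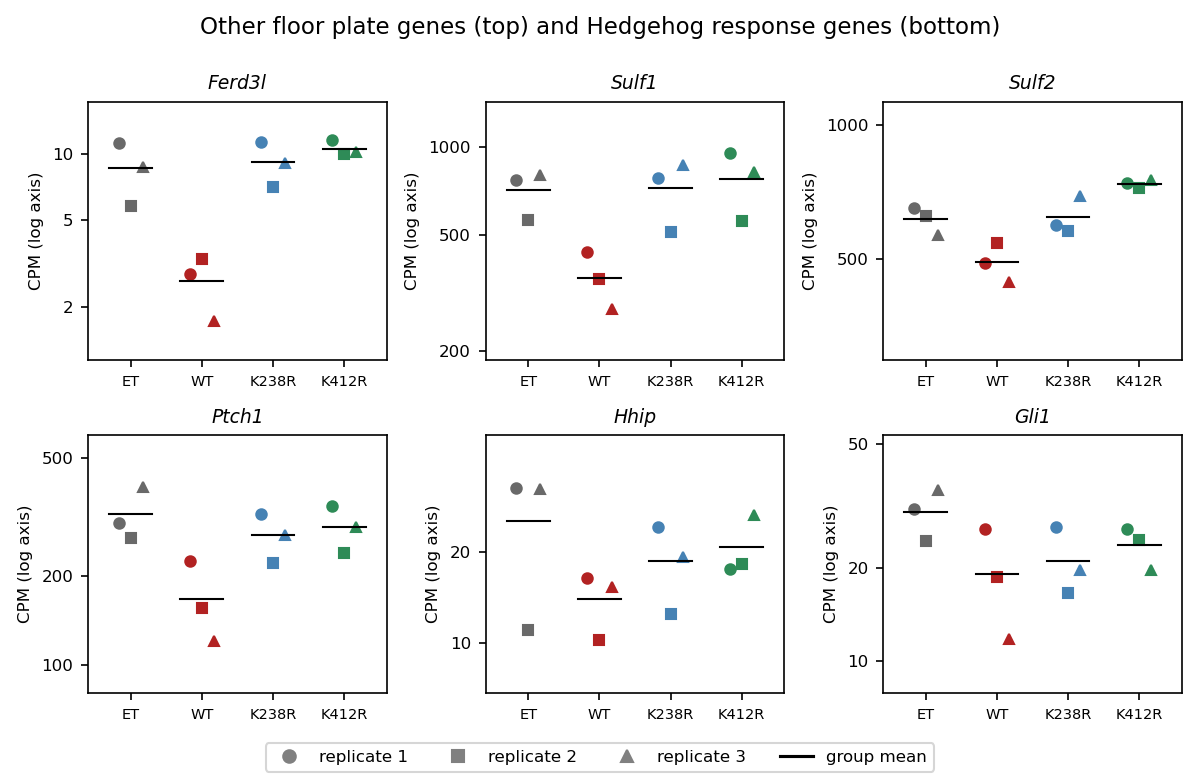
CPM of 3 further floor plate genes (top) and 3 genes induced by Hedgehog signalling (bottom) in each library (points, log axis), by group, with the group mean as a line (n = 3 libraries per group). The WT libraries lie below all others for Ferd3l, Sulf1 and Sulf2, and overlap with at least 1 other group for Ptch1, Hhip and Gli1.

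In K412R against WT, 3 of the 21 Hedgehog genes passed the adjusted threshold, where 2.04% of all genes did. Cdon, a Shh co-receptor, was higher, at 39.3, 38.3 and 35.1 CPM in WT and 64.9, 46.2 and 57.2 CPM in K412R (log2 fold change 0.58, standard error 0.13, adjusted p = 0.0446, edgeR). Gas1, another co-receptor, was lower (-1.06, standard error 0.21, adjusted p = 0.0333), from 9.79, 14.5 and 12.7 CPM to 4.44, 6.42 and 6.83 CPM. Gpr161, a ciliary receptor that restrains the pathway, was lower as well (-0.54, standard error 0.11, adjusted p = 0.0298). Ptch1 was at 0.81 (adjusted p = 0.0833 by edgeR, while it passed with DESeq2 at 0.0145), Hhip at 0.57 (adjusted p = 0.372) and Gli1 at 0.31 (adjusted p = 0.508). Cdon lost its call in 8 of 12 fits that each left out 1 library, and Gas1 and Gpr161 in 7 each. All 3 lost it without ET replicate 1, WT replicates 2 or 3, replicate 3 of the libraries labelled K238R, or K412R replicates 1 or 3, Cdon also without replicates 1 or 2 of the libraries labelled K238R, and Gas1 and Gpr161 also without K412R replicate 2. Their adjusted p in these fits lay between 0.0505 and 0.202. Without the libraries labelled K238R, 0 of the 3 passed (adjusted p = 0.0782, 0.0682 and 0.0663). For the libraries labelled K238R against WT, 0 of the 21 passed with edgeR, 10 had an unadjusted p under 0.05 (17.5% of all genes) and 2 passed with DESeq2 (4.27%). Against ET, 0 of the 21 passed in either mutant group with edgeR or DESeq2. An unadjusted p under 0.05 was found for 2 in K412R (7.91% of all genes) and for 2 in the libraries labelled K238R (5.61%).

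Ventral progenitor and neuron genes, the cells that Shh patterns, were read from a list of 14, and dorsal genes from a list of 16, of which 13 were tested. In both lists 0 genes passed with edgeR in any comparison. For WT against ET, 4 ventral and 2 dorsal genes had an unadjusted p under 0.05, with 0 and 1 passing with DESeq2, where the shares of all genes were 29.1% and 10.4%. For K412R against WT the counts were 1 and 4, with 1 and 4 passing with DESeq2 (22.8% and 9.1% of all genes), and for the libraries labelled K238R against WT they were 4 and 1, with 2 and 0 (17.5% and 4.27%). Against ET they were 1 and 2 for K412R (7.91% of all genes) and 2 and 0 for the libraries labelled K238R (5.61%), with none passing with DESeq2. The summed level of the ventral list followed the mean of the 8 members with r = 0.54, and that of the dorsal list with r = -0.01.

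Receptors and partners of netrin and Slit were read from a list of 22, of which 21 were tested, and 1 of them passed for K412R against WT, where 2.04% of all genes did. Robo2, a Slit receptor, fell from 76.1, 111 and 119.9 CPM in WT to 62.3, 61.0 and 64.2 CPM in K412R (log2 fold change -0.71, standard error 0.15, adjusted p = 0.0382, edgeR). Its call was lost in 9 of the 12 fits without 1 library, all but those without ET replicate 2, ET replicate 3 or WT replicate 1, and without the libraries labelled K238R (adjusted p = 0.0775). For WT against ET, 0 of the 21 passed with edgeR, 5 had an unadjusted p under 0.05 (29.1% of all genes) and 3 passed with DESeq2 (10.4%), shares of the list near those of all genes. For the libraries labelled K238R against WT, 0 passed with edgeR or DESeq2, and 2 had an unadjusted p under 0.05 (17.5% of all genes).

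Shh, Foxa1 and Foxa2 are also made by other tissues, and markers of these were read beside them. Of 7 notochord genes, 0 passed with edgeR for WT against ET, with 5 at an unadjusted p under 0.05 (29.1% of all genes) and 5 passing with DESeq2 (10.4%). For the libraries labelled K238R against WT 0 passed (0.223% of all genes), with 4 at an unadjusted p under 0.05 (17.5%) and 1 passing with DESeq2 (4.27%). For K412R against WT 1 passed (2.04% of all genes), with 5 at an unadjusted p under 0.05 (22.8%) and 4 passing with DESeq2 (9.1%). T (brachyury) was at 34.2, 42.0 and 35.9 CPM in ET, at 20.5, 7.26 and 4.65 CPM in WT, at 34.4, 21.4 and 20.2 CPM in the libraries labelled K238R and at 44.8, 36.9 and 51.2 CPM in K412R, and it rose in K412R over WT by 2.03 on the log2 scale (adjusted p = 0.0367, edgeR). That call was lost in 7 of the 12 fits without 1 library, namely ET replicate 1, WT replicates 2 or 3, replicate 3 of the libraries labelled K238R or any K412R replicate (adjusted p from 0.0570 to 0.146), and without the libraries labelled K238R (adjusted p = 0.0660). The sum of the 7 notochord genes in the files was between 282 and 371 CPM in ET, 163 and 234 CPM in WT, 226 and 315 CPM in the libraries labelled K238R and 278 and 382 CPM in K412R, with r = 0.95 with the mean of the 8 members. Its 2 most abundant genes were Col2a1 and Sox9, which cartilage also expresses. Noto, a defining notochord gene, was at 3.10 CPM or less in all libraries. It was at 2.64, 2.16 and 3.10 CPM in ET and at 0.778, 0.0567 and 0 CPM in WT. It was at 2.07, 1.51 and 0.895 CPM in the libraries labelled K238R and at 2.11, 3.03 and 2.31 CPM in K412R. For WT against ET the log2 fold change of Noto was -3.19 (adjusted p = 0.100, edgeR), which did not pass. Its r with the mean of all members, Lmx1a included, was 0.87. The part of notochord in the members' levels was not tested.

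The sum of markers of gut endoderm, which expresses all of Shh, Foxa1 and Foxa2, had r = -0.05 with the mean of the 8 members. Gene by gene, r with the mean of all 9 members ran from -0.37 for Tff3 to 0.77 for Cdx2. It was 0.64 for Gata4 and 0.57 for Foxa3, and was negative only for Tff3, Krt19 and Cldn7. Their sum lay between 153 and 247 CPM in ET and between 213 and 255 CPM in WT, with Krt19 and Cdh1 the most abundant. The defining genes Cdx1, Cdx2 and Foxa3 reached at most 0.168, 0.994 and 1.03 CPM in any library. Of 14 gut genes tested, 0 passed with edgeR in any comparison. For WT against ET, 2 had an unadjusted p under 0.05 (29.1% of all genes) and 1 passed with DESeq2 (10.4%). For K412R the counts were 5 and 2 against WT (22.8% and 9.1%), and 6 and 0 against ET (7.91% and 0.484%). The part of gut endoderm in the members' levels was not tested. Liver and yolk sac markers (r = -0.20), led by Trf and Apoa1, summed to at most 33.1 CPM, with Alb at no more than 0.278 CPM, and the airway list, led by Nkx2-1 and Sftpc, to at most 13.1 CPM. Sftpc, 1 of 2 airway genes tested, passed for K412R against WT (log2 fold change 1.21, adjusted p = 0.0434, edgeR), where 2.04% of all genes did. Its call was lost in 9 of 12 fits, all but those without ET replicate 2, ET replicate 3 or WT replicate 1 (adjusted p from 0.0531 to 0.199).

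Among the other marker lists, the choroid plexus sum followed the members (r = 0.83) and was led by Enpp2 and Aqp1, while the choroid plexus gene Ttr was at 4.17 CPM or less in all libraries but replicate 2 of those labelled K238R, where it stood at 20.4 CPM. Most of that sum was Enpp2, with a mean of 174 CPM of 222 CPM in ET. Of the 11 choroid plexus genes, 3 had a lower mean in WT than in ET (median log2 fold change 0.38), and 6 had a lower mean in K412R than in WT (median -0.32). For K412R against WT, 2 of the 11 passed with edgeR, where 2.04% of all genes did. Folr1 rose by 2.09 (adjusted p = 0.00435) and Enpp2 by 1.37 (adjusted p = 0.00662) on the log2 scale by edgeR. Enpp2 lost its call without WT replicate 3 (adjusted p = 0.0502). Folr1 also rose in the libraries labelled K238R over WT, by 1.76 (adjusted p = 0.0219, edgeR), a call lost in 6 of 12 fits, namely without WT replicates 2 or 3, any library labelled K238R or K412R replicate 3 (adjusted p from 0.0529 to 0.137). The neuron sum, led by Map2 and Tubb3, ran against the members (r = -0.82), between 2196 and 2967 CPM in ET and between 2797 and 3927 CPM in WT. Elavl4 (r = 0.18) and Dcx (0.10) had a positive r with the mean of all 9 members, and the other neuron genes a negative one. The cardiac sum, led by Actn2 and Ryr2, had r = -0.77, but 4 of its 10 genes were under 1 CPM in every library. Of the 6 tested, Tnni3 had r = 0.13 with the mean of all 9 members and the others a negative r. For WT against ET, 0 of the 6 passed with edgeR or DESeq2, and 1 had an unadjusted p under 0.05 (29.1% of all genes). Of 9 neuron genes, 6 had an unadjusted p under 0.05 for WT against ET (29.1% of all genes), with 0 passing with edgeR and 3 with DESeq2 (10.4%). For K412R against WT, 7 had an unadjusted p under 0.05 (22.8%) and 6 passed with DESeq2 (9.1%). In that comparison 1 of 9 neuron genes passed with edgeR, where 2.04% of all genes did. This gene, Elavl3, was at -0.70 (adjusted p = 0.0188, edgeR). It lost its call without WT replicates 2 or 3 or K412R replicates 1 or 3 (adjusted p from 0.0780 to 0.103). The neural progenitor sum, led by Vim and Fabp7, followed the members with r = 0.58. These lists contain genes shared with other tissues, and their part in the members' levels was not tested.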

How the data were processed

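RNA of teratomas was sequenced from both ends after library preparation with the CORALL kit, 1 library per teratoma. The authors used Fastp for trimming, STAR for mapping and Salmon for quantification, and the submitters' processing notes name the build GRCm39 and also GATK. The gene annotation is not given in the sources used here. The deposited values are estimated counts per gene, whole numbers without normalization.

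Groups were taken from the labels. Counts were scaled with TMM in edgeR 4.0.16 (R 4.3.3), and log2 CPM used a prior count of 2. Genes were filtered with filterByExpr, and the robust quasi-likelihood test used a single model of the 12 libraries with group as its only term, with Benjamini-Hochberg adjustment over 18405 genes and a threshold of 0.05. The authors' methods name DESeq2 for this step, and DESeq2 1.42.0 was run as an alternative. The steps were tested on simulated data.

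Members and gene lists were chosen with earlier results of these data known. Named were all members, list genes past the threshold (at most 4 per list and comparison by fold change), Gli1, Ptch1, Hhip and Dnmt3l, the 2 most abundant genes of each marker list and the 8 genes most like the members. The same number of genes most like Lmx1a, and other marker genes, were added after values were seen. Results of 2 list genes are not reported here, and counts over their lists include them.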

Additional observations from a re-analysis of the deposited data

How the results depend on the processing

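The 450 alternative values of the members' log2 differences (other scalings, another prior count, each library left out) moved by less than 1 SD. The sign turned for Lmx1a between the libraries labelled K238R and WT (0.03 with library totals) and for several differences of the mutant groups from ET, never for the 8 other members against WT or for WT against ET. The mean r over all pairs of members, 0.67, was 0.53 for deviations from group means, 0.55 without WT replicates 2 and 3 (the libraries farthest from the median of the members' mean) and 0.88 without Lmx1a.

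Counts of calls depended on the test. Over all genes, WT against ET gave 9 calls, with 1922 by DESeq2, 34 with no filter, 0 in a fit of the 2 groups alone, 926 with a replicate block and 0 without the libraries labelled K238R. The libraries labelled K238R against WT gave 41, with 786 by DESeq2, 69 with no filter, 385 in 2 groups and 203 with the block. K412R against WT gave 375, with 1675 by DESeq2, 1877 in 2 groups, 1131 with the block and 137 without the libraries labelled K238R. Against ET, both gave 0, with 14 and 89 by DESeq2 and, for K412R, 1 with no filter.

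Whether the replicate numbers pair the tumours cannot be told from these values. For same-numbered pairs, r of deviations from group means lay between -0.26 and 0.39 (median 0.07) and was over 0.1 for 7 of 18. Of the 12 libraries, 6 matched best with a library of their own number. With the block, 7, 5 and 7 of the 9 members passed for WT against ET, the libraries labelled K238R against WT and K412R against WT. In the same order, 926, 203 and 1131 of all 18405 genes tested did. Nothing is read from the counts of members, since the members were chosen with their levels known. Hedgehog genes gave 0 for WT against ET, with 6 by DESeq2 and 4 with the replicate block, 0 for the libraries labelled K238R against WT, with 2, 1 and 1 by DESeq2, 2 groups and block, and 3 for K412R against WT, with 5, 6 and 5, and 0 without the libraries labelled K238R. Further floor plate genes gave 0 for WT against ET, with 7 by DESeq2, 1 with no filter and 6 with the block, 1 for the libraries labelled K238R against WT, with 6 by DESeq2 and 2 with the block, and 4 for K412R against WT, with 2 with no filter and 7 in 2 groups. Ventral genes gave 0, with 2 by DESeq2 and 1 in 2 groups for the libraries labelled K238R against WT and 1 by DESeq2 and by the block for K412R against WT. Dorsal genes gave 0, with 1 by DESeq2 for WT against ET, and 4 by DESeq2 and 2 in 2 groups for K412R against WT. Netrin and Slit partners gave 0 for WT against ET, with 3 by DESeq2 and 1 with no filter or the block, 1 for K412R against WT, with 4 by DESeq2, 6 in 2 groups, 2 with the block and 0 without the libraries labelled K238R, and 0 for K412R against ET, with 1 by DESeq2.

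With 1 library left out at a time, calls over all genes ranged from 0 to 5784 for WT against ET, 2 to 812 for the libraries labelled K238R against WT, 10 to 1526 for K412R against WT and 0 to 284 for K412R against ET. In the same order, ranges were 0 to 12, 0 to 2 and 0 to 4 for Hedgehog genes, 0 to 6, 0 to 5, 0 to 7 and 0 to 1 for further floor plate genes, 0 to 5, 0 to 2 and 0 to 1 for ventral genes, and 0 to 9, 0 to 1, 0 to 4 and 0 to 1 for netrin and Slit partners. Dorsal genes ranged from 0 to 3 for WT against ET, 0 to 2 for K412R against WT and 0 to 1 for K412R against ET. Gli1 turned sign between the libraries labelled K238R and WT, from 0.15 to between -0.10 and 0.47. Over all genes, the highest count in each of the above comparisons came without ET replicate 2. For WT against ET, 5784 genes passed without it, and the next highest count was 1309, without WT replicate 1. The cause of these changes was not tested. Groups of 3 libraries and the spread between tumours set the precision, since the lowest count of a member in a library was 258.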
